A study of Mus musculus with 6 samples.

Results

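Effector cytokines and colony stimulating factors are the secreted proteins by which helper T cells direct other immune cells. The genes examined here were *Il2*, *Ifng*, *Il4*, *Il5*, *Il13*, *Il17a*, *Il16*, *Csf1* and *Csf2*. These were chosen by name as products that separate helper T cell lineages or feed myeloid cells, with earlier results of these data known. They are 9 of the 45777 genes in the deposited tables, and their estimated reads were summed over all transcripts of each gene. The RNA came from CD4+Lrig1+ and CD4+Lrig1- T cells purified from the spleens of untreated female C57BL/6 mice, an inbred strain, aged 7 weeks. Lrig1 is a membrane protein with leucine-rich repeats and immunoglobulin-like domains, and the cells were separated by its presence on the surface. The data used are 2 CD4+Lrig1+ and 2 CD4+Lrig1- libraries in 2 tables, here set 1 and set 2, with 1 library of each group in each table. The labels do not say whether libraries came from separate animals or pools, so all p-values measure only the spread between these libraries.

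Interleukin-2 is the growth factor that activated T cells secrete and that regulatory T (Treg) cells, which have little *Il2* transcription of their own, take up through their high-affinity receptor. Interferon-γ marks Th1 cells, IL-4, IL-5 and IL-13 mark Th2 cells, and IL-17A marks Th17 cells. IL-16 is stored as a precursor in resting lymphocytes and binds CD4. The products of *Csf1* (M-CSF) and *Csf2* (GM-CSF) act on macrophages, monocytes and granulocytes through separate receptors.

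*Csf1* and *Il2* lay well above the CD4+Lrig1- level in the CD4+Lrig1+ libraries of both sets, by 10.9-fold and 9.86-fold for *Csf1* and by 4.14-fold and 8.41-fold for *Il2*. *Csf2*, the other colony stimulating factor, went the opposite way, with 6 and 5 estimated reads in CD4+Lrig1+ against 26 and 24 in CD4+Lrig1- T cells. *Ifng* and *Il4* lay above the CD4+Lrig1- level by less, and the level of *Il16*, by far the most abundant of the 9 transcripts, differed little. *Il5*, *Il13* and *Il17a* had at most 6 reads in any library. The plot of the 9 genes by library shows these levels.

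**Figure D1:**
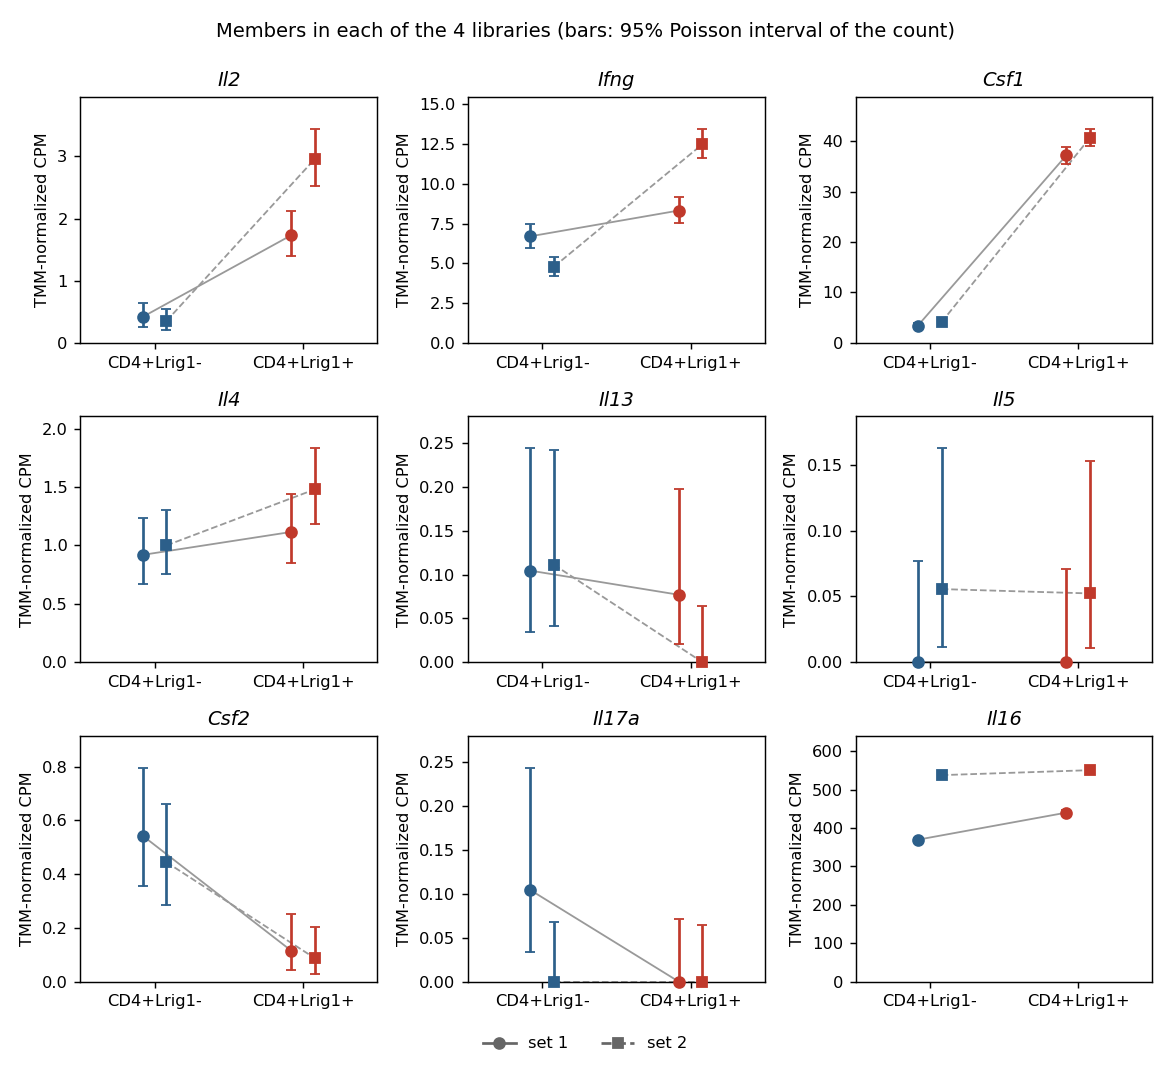
Level of the 9 genes in each library, in read counts scaled to library size with TMM factors (CPM, y axis, linear from 0), for CD4+Lrig1- (blue) and CD4+Lrig1+ (red) T cells. Lines join the libraries of set 1 (circles) and set 2 (squares), and bars are 95% Poisson intervals of the count. The CD4+Lrig1+ libraries had 37.2 and 40.7 CPM of Csf1 against 3.43 and 4.13, while Csf2 stood at 0.115 and 0.0871 against 0.543 and 0.444.

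The libraries held 44865070 to 59977951 estimated reads on genes. Of 16123 genes that passed the filter on low counts of edgeR (filterByExpr), 6 were among the 9 examined, since *Il5*, *Il13* and *Il17a* did not pass. *Csf2* reached 10 reads only in its CD4+Lrig1- libraries. Log2 CPM correlated, across genes, at 0.960 and 0.959 between the groups within the sets and at 0.908 between the sets within either group, so values are given per set. The deposited counts are estimated reads, and the mates of a pair are not independent, so intervals on counts cover counting error only and are too narrow. For a single gene, exact permutation of 2 against 2 libraries gives no p under 0.333. In the edgeR quasi-likelihood test over all 4 libraries, 0 of the 6 genes passed an adjusted p of 0.05, as did 0% of all genes tested in either direction. At an unadjusted p under 0.05 that test had 2 of the 6 higher (*Csf1* and *Il2*) and 0 lower, beside 4.03% and 1.33% of all genes. With the set as a further term (the table block, which leaves 1 residual degree of freedom), *Csf1* and *Il2* passed as higher and 0 as lower, beside 14.5% and 12.8% of all genes tested. Of the alternatives, *Csf1* alone passed in the DESeq2 Wald test (1.61% of all genes higher, 0.31% lower) and in edgeR's exact test (1.22% and 0.105%). Both *Csf1* and *Il2* passed in every further fit with a set term, namely the Wald test (11.7% and 12.5%), edgeR without a filter (7.24% and 5.26%), edgeR on total counts (18.7% and 12.4%) and limma on log2(FPKM + 1) (11.9% and 6.3%), and in the last *Csf2*, which entered the test through its CD4+Lrig1- libraries alone, passed as lower.

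The colony stimulating factors, which act on myeloid cells, differed in opposite directions. *Csf1* (gene ID 12977, chromosome 3 of GRCm38 from 107741048 to 107760469), the macrophage growth factor, had 1933 and 2337 estimated reads in CD4+Lrig1+ T cells (set 1, then set 2, as throughout) and 164 and 223 in CD4+Lrig1- T cells. The groups did not overlap, a separation upward found for 14.3% of all genes tested, and the 2 libraries of each group lay close together. Mean levels were 38.9 ± 2.49 CPM (SD, n = 2) in CD4+Lrig1+ against 3.78 ± 0.50 CPM (SD, n = 2) in CD4+Lrig1- T cells. The 95% interval of the fold was 9.25 to 12.8 in set 1 and 8.59 to 11.4 in set 2, so the sets did not differ beyond counting error. The log2 fold change over all libraries was 3.36 (standard error 0.32), with an adjusted p of 0.562 from the edgeR quasi-likelihood test. With the table block *Csf1* rose by 3.37 on the log2 scale (standard error 0.11, adjusted p = 5.66e-06 from the same test). As in any bulk sample, more cells that express a gene and more RNA per cell cannot be told apart.

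Most *Csf1* reads were assigned to transcript variant 1, which held 93.1% and 98.1% of them in CD4+Lrig1+ T cells, against 100% and 74.9% in CD4+Lrig1- T cells. Variant 2, spliced to a shorter message between the same ends, held 103 and 24 reads in CD4+Lrig1+ against 0 and 56 in CD4+Lrig1- T cells. Its share therefore had no constant direction between the groups. Variant 3, whose annotated 3′ end lies further upstream, held 30 and 21 reads in CD4+Lrig1+ and 0 in both CD4+Lrig1- libraries. Alternative splicing of *Csf1* is known to yield secreted and membrane-bound forms of the protein. The division of reads between variants that share exons rests on the model of the assembler (StringTie).

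*Csf2* (gene ID 12981, chromosome 11 from 54247270 to 54249899) encodes GM-CSF, a product of activated helper T cells. Its level was 0.115 and 0.0871 CPM in CD4+Lrig1+ against 0.543 and 0.444 CPM in CD4+Lrig1- T cells, and the groups did not overlap (11.8% of all genes tested separated downward). *Csf2* entered the test only through the group where it is high. This separation and the fits below are therefore descriptions, not read against that share. The CD4+Lrig1- level was 4.71 times (95% interval 1.89 to 13.98) the CD4+Lrig1+ level in set 1 and 5.10 times (1.91 to 17.1) in set 2. The log2 fold change of -2.26 (standard error 0.88) did not pass (adjusted p = 1.00 from the edgeR quasi-likelihood test), nor did that with the table block (-2.26, standard error 0.74, adjusted p = 0.0597). Natural killer (NK) and gamma delta T cells also make GM-CSF, and their marker sums were lower in CD4+Lrig1+ T cells too, at 19.6 and 50.1 against 77.9 and 185 CPM for the 8 NK genes and 6.79 and 12.5 against 17.4 and 25.3 CPM for the 5 gamma delta genes. Of the NK genes only 3 (*Prf1*, *Klrb1c* and *Klrk1*) reached 1 CPM in every library, and of the gamma delta genes 2. The part of these cells in the *Csf2* values was not tested. In set 1, 10 of the 26 CD4+Lrig1- reads were assigned to a predicted variant that had 0 reads in the other 3 libraries.

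*Il2* (gene ID 16183, chromosome 3 from 37120713 to 37125954) had 90 and 170 estimated reads in CD4+Lrig1+ against 20 and 19 in CD4+Lrig1- T cells. All 4 libraries were low, yet both CD4+Lrig1+ libraries stood clear of both CD4+Lrig1- libraries, at 2.35 ± 0.87 CPM (SD, n = 2) against 0.385 ± 0.047 CPM (SD, n = 2). The 95% interval of the fold ran from 2.53 to 7.10 in set 1 and from 5.22 to 14.3 in set 2. Over all libraries the log2 fold change was 2.60 (standard error 0.66), with an adjusted p of 0.725 from the edgeR quasi-likelihood test. With the table block *Il2* rose by 2.56 on the log2 scale (standard error 0.41, adjusted p = 0.00394).

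**Figure D2:**
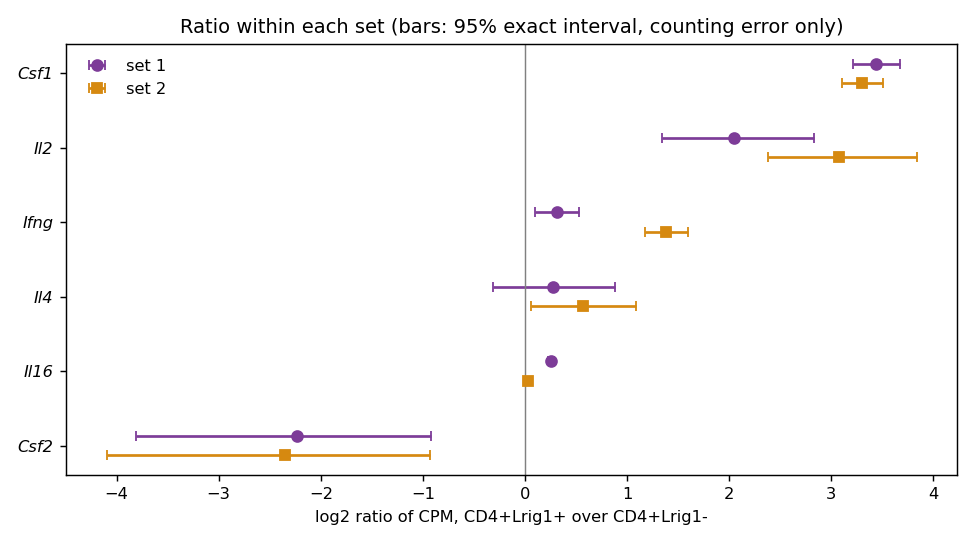
Log2 ratio of CPM (CD4+Lrig1+ to CD4+Lrig1-) within set 1 (circles) and set 2 (squares) for the 6 genes tested, without a prior count. Bars are exact 95% intervals of the ratio of 2 counts and cover counting error only. The intervals of Csf1 and Il2 lie above 0 and those of Csf2 below 0 in both sets, that of Il4 in set 1 spans 0, and Ifng stands at 0.31 in set 1 and 1.38 in set 2.

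Sequence 5′ of the annotated starts is shown for *Il2*, which passed with the table block. It is also shown for both starts of *Il4*, because the assembler divided *Il4* reads between their transcripts. Activation of these genes is classically driven by NFAT, AP-1 and, for Th2 cytokines, GATA3. Each window holds the 250 bases before a RefSeq start (GRCm38.p6, reverse strand, written 5′ to 3′ as transcribed), and capitals mark the NFAT core, GGAAAA or its reverse complement TTTTCC. The *Il2* window is chr3:37125955-37126204, that of the coding *Il4* start chr11:53618666-53618915 and that of the noncoding *Il4* start chr11:53617339-53617588.
Il2: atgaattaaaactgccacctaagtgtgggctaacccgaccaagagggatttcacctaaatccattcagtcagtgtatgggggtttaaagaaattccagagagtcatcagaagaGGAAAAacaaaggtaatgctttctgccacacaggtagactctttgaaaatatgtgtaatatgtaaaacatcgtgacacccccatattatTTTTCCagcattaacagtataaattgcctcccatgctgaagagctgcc
Il4 coding start: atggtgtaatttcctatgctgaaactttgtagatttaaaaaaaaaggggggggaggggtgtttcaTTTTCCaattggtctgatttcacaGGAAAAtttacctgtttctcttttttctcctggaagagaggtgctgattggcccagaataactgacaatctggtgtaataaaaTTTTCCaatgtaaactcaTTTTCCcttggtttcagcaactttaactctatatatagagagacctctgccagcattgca
Il4 noncoding start: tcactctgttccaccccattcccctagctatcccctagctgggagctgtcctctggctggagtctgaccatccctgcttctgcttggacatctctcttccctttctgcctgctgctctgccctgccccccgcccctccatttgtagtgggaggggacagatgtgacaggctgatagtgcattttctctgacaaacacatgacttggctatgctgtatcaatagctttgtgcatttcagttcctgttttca
The *Il2* window held 2 such matches, the coding *Il4* start 4 and the noncoding start 0. At least 1 match was found for 3 of the 9 genes, over 12 windows in all. Among 32851 RefSeq windows of this length, 20.4% held at least 1. Of the 9 genes, the only other match of the NFAT core was 1 in the window of *Il13*. The AP-1 letters TGANTCA (6.75% of all windows) occurred at *Il17a* and at the most upstream of 3 *Il16* starts examined, and the GATA core AGATAA (9.99%) at *Il13* and *Csf2*, on either strand. The windows of *Csf1*, *Ifng* and *Il5* held none of these letters. *Csf1* also passed with the table block, and its window is not shown. A match is a description of the sequence only.

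*Ifng* (gene ID 15978, chromosome 10 from 118441046 to 118445894), the Th1 cytokine that activates macrophages, had 8.33 and 12.5 CPM in CD4+Lrig1+ against 6.70 and 4.80 CPM in CD4+Lrig1- T cells. The groups did not overlap, but the size of the difference depended on the set. The ratio was 1.24 (95% interval 1.07 to 1.44) in set 1 and 2.61 (2.26 to 3.02) in set 2, and these intervals do not meet. The log2 fold change of 0.86 (standard error 0.44) did not pass, with an adjusted p of 1.00 from the edgeR quasi-likelihood test and of 0.0655 with the table block. NK and CD8 T cells also make interferon-γ. The NK sums are those given beside *Csf2*, and *Cd8a* with *Cd8b1* summed to 14.1 and 51.6 against 19.5 and 97.3. Between the groups both sums were lower in CD4+Lrig1+ T cells. Within CD4+Lrig1+ T cells set 2 had the higher *Ifng* level and the higher sums. Within CD4+Lrig1- T cells set 2 had the lower *Ifng* level, 4.80 against 6.70 CPM, and again the higher sums. The part of such cells in the *Ifng* values was not tested.

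*Il4* (gene ID 16189, chromosome 11 from 53612460 to 53618665), which drives the Th2 lineage and class switching of B cells, had 58 and 85 estimated reads in CD4+Lrig1+ against 44 and 54 in CD4+Lrig1- T cells. The groups did not overlap in CPM, at 1.115 and 1.48 against 0.919 and 1.00, but the Poisson intervals of all 4 libraries did. The ratio was 1.21 (95% interval 0.806 to 1.84) in set 1 and 1.48 (1.04 to 2.12) in set 2. The log2 fold change was 0.43 (standard error 0.60), with an adjusted p of 1.00 from the edgeR quasi-likelihood test and 0.442 with the table block.

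The 2 annotated *Il4* transcripts did not share this ratio. The coding variant 1 had 28 and 48 reads in CD4+Lrig1+ against 16 and 8 in CD4+Lrig1- T cells, a ratio of 1.61 (95% interval 0.842 to 3.19) in set 1 and 5.64 (2.65 to 13.8) in set 2. The noncoding variant 2, which starts 1327 bases further into the gene, had 30 and 37 against 28 and 46 reads, a ratio of 0.987 (0.570 to 1.71) and 0.756 (0.477 to 1.19). The coding variant thus took 48.3% and 56.5% of *Il4* reads in CD4+Lrig1+ against 36.4% and 14.8% in CD4+Lrig1- T cells. Within set 1 the exact binomial intervals of these shares overlapped (34.95% to 61.8% and 22.4% to 52.2%), and within set 2 they did not (45.3% to 67.2% and 6.62% to 27.1%). Both variants share exons, so the split is an estimate of the assembler.

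**Figure D3:**
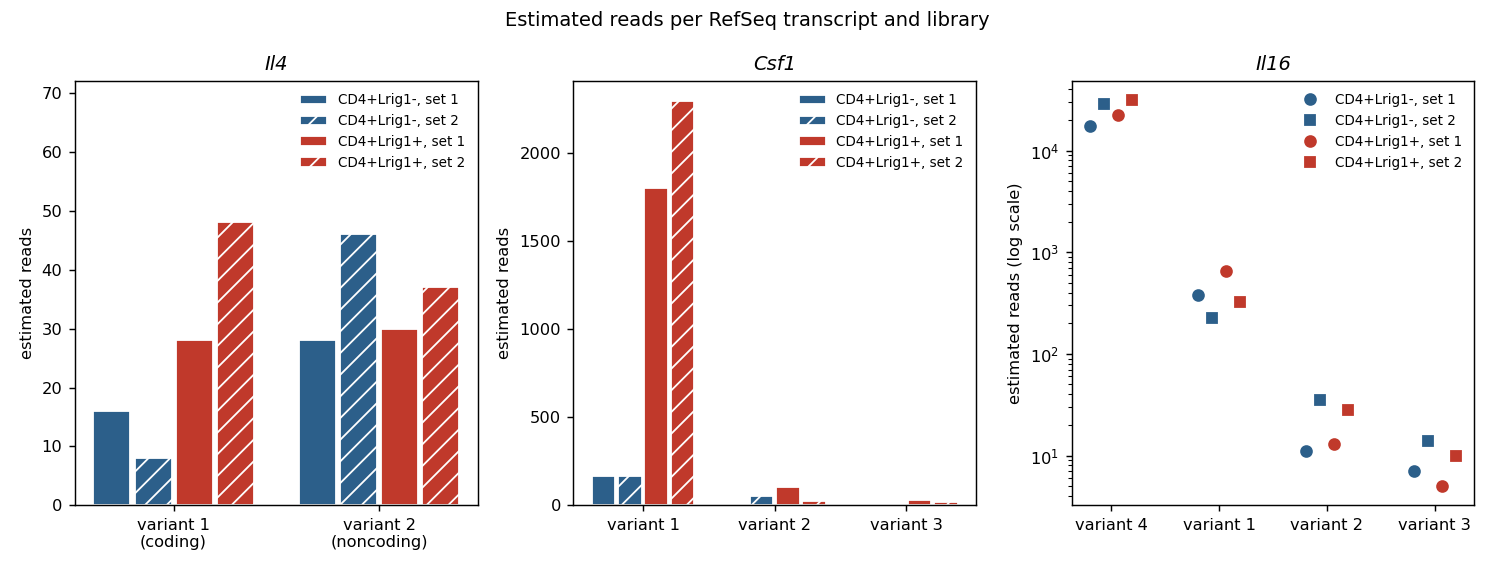
Estimated reads assigned to each RefSeq transcript of Il4, Csf1 and Il16 (y axis, linear for Il4 and Csf1, logarithmic for Il16) in CD4+Lrig1- (blue) and CD4+Lrig1+ (red) libraries of set 1 and set 2. The coding Il4 variant had 28 and 48 reads in CD4+Lrig1+ against 16 and 8 in CD4+Lrig1- T cells, variant 1 held most Csf1 reads in every library, and variant 4 held 97.0% to 99.0% of Il16 reads. Il16 transcripts with fewer reads than variant 3 are not drawn.

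*Il13* (gene ID 16163, chromosome 11 from 53631323 to 53634702), which acts on epithelium and smooth muscle, had 4 and 0 reads in CD4+Lrig1+ against 5 and 6 in CD4+Lrig1- T cells. *Il5* (gene ID 16191, chromosome 11 from 53720794 to 53725103), the eosinophil growth factor, had 0 reads in both libraries of set 1 and 3 in both of set 2. *Il17a* (gene ID 16171, chromosome 1 from 20730905 to 20734496), the Th17 product that recruits neutrophils, had 5 reads in the CD4+Lrig1- library of set 1 and 0 in the other 3 libraries. The interval of the *Il13* ratio reached up to 0.799 in set 2, but it rests on 0 against 6 reads. Such intervals cover counting error only and are too narrow, and in set 1 that of *Il13* ran from 0.146 to 3.42. No difference between the groups in *Il5*, *Il13* or *Il17a* was resolved at this depth. A count of 0 in the CD4+Lrig1+ libraries allows up to 0.0577 CPM in set 1 and 0.0522 CPM in set 2 as a limit of 3 reads, and the two-sided 95% Poisson bars of the plot reach 0.0709 and 0.0642 CPM. Mast cell and basophil markers, from cells that also make the Th2 cytokines, summed to 0.769 and 1.62 CPM in CD4+Lrig1+ against 0.961 and 3.02 CPM in CD4+Lrig1- T cells. Gamma delta T cells, a further source of IL-17A, had the marker sums given beside *Csf2*. The part of these cells in the few reads of the 3 genes was not tested.

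*Il16* (gene ID 16170, chromosome 7 from 83642819 to 83746028), the precursor of a chemoattractant for CD4+ cells, had 22888 and 31628 estimated reads in CD4+Lrig1+ against 17697 and 29044 in CD4+Lrig1- T cells. By CPM it stood at 440 and 551 against 370 and 538, so the groups overlapped and the sets differed more than the groups. The ratio was 1.19 (95% interval 1.17 to 1.21) in set 1 and 1.02 (1.01 to 1.04) in set 2, intervals set by very deep counts rather than by replicate spread. The log2 fold change was 0.13 (standard error 0.41, adjusted p = 1.00 from the edgeR quasi-likelihood test), and with the table block it was 0.14 (standard error 0.092, adjusted p = 0.299). Without the CD4+Lrig1- library of set 1 the log2 fold change was -0.072, and without the CD4+Lrig1+ library of set 2 it was -0.049.

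Nearly all *Il16* reads were assigned to a variant whose annotated start lies deep inside the gene. The *Il16* variants overlap, so this division rests on the model of the assembler. Variant 4, which starts at position 83655495, 80.0 kb downstream of the most upstream start examined, held 97.0% and 98.8% of reads in CD4+Lrig1+ against 97.8% and 99.0% in CD4+Lrig1- T cells. Variant 1, from one of the upstream starts, held 656 and 327 against 380 and 226 reads, a ratio of 1.59 (95% interval 1.40 to 1.81) in set 1 and 1.36 (1.14 to 1.62) in set 2. Its share separated the sets more than the groups, at 2.87% and 2.15% in set 1 and 1.03% and 0.778% in set 2. The window before the internal start, chr7:83655496-83655745, is shown because it lies 5′ of the variant assigned nearly all *Il16* reads. It held none of the 3 motifs, so no letter is in capitals.
Il16 internal start: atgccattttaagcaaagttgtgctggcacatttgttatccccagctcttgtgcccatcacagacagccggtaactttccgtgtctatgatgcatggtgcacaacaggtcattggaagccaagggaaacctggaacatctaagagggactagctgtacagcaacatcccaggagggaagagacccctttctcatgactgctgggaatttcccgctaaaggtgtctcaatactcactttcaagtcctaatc

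Compared per length of transcript, as the deposited FPKM summed per gene, the order of levels differed between the groups. In CD4+Lrig1+ T cells *Il16* (142 ± 16.9 FPKM, SD, n = 2) was followed by *Csf1* (8.83 ± 0.0735), *Ifng* (7.97 ± 1.92), *Il2* (2.27 ± 0.751), *Il4* (1.98 ± 0.322) and *Csf2* (0.0898 ± 0.0194). Here the libraries of *Csf1* and *Ifng* overlapped, as did those of *Il2* and *Il4*, so the order within these pairs is not resolved. In CD4+Lrig1- T cells *Il16* (125 ± 22.1 FPKM, SD, n = 2) was followed by *Ifng* (4.33 ± 1.40), *Il4* (1.41 ± 0.0589), *Csf1* (0.837 ± 0.0713), *Csf2* (0.446 ± 0.126) and *Il2* (0.362 ± 0.0755). The libraries of *Csf2* and *Il2* overlapped, and the other neighbours in this order did not. By mean level *Csf1* ranked 2 of the 9 in CD4+Lrig1+ against 4 in CD4+Lrig1- T cells, and *Il2* ranked 4 and 6. Of these ranks, only that of *Csf1* in CD4+Lrig1- T cells lay outside an unresolved pair. *Il5*, *Il13* and *Il17a* had at most 0.0828 FPKM in any library.

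Over the 6 genes tested, each CD4+Lrig1+ library had a higher level than either CD4+Lrig1- library for 4 (*Csf1*, *Il2*, *Ifng* and *Il4*), beside 14.3% of all genes tested, and a lower level for 1 (*Csf2*), beside 11.8%. In both sets 5 of the 6 had a higher value in CD4+Lrig1+ T cells (35.9% of all genes) and 1 a lower one (41.3%). A difference of at least 2-fold in both sets, computed with a prior count of 2, was found upward for *Csf1* and *Il2* (7.37% of all genes). *Csf2* had log2 ratios of -1.92 and -1.95, and 3.01% of all genes were at least 2-fold lower in both sets. Since *Csf2* entered the test only through the group where it is high, its place among the lower genes is a description and is not read against these shares. The median log2 fold change of the 6 was 0.65, against -0.040 for all genes tested. Since the genes were chosen with earlier results of these data known, these counts and the median are descriptions.

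**Figure D4:**
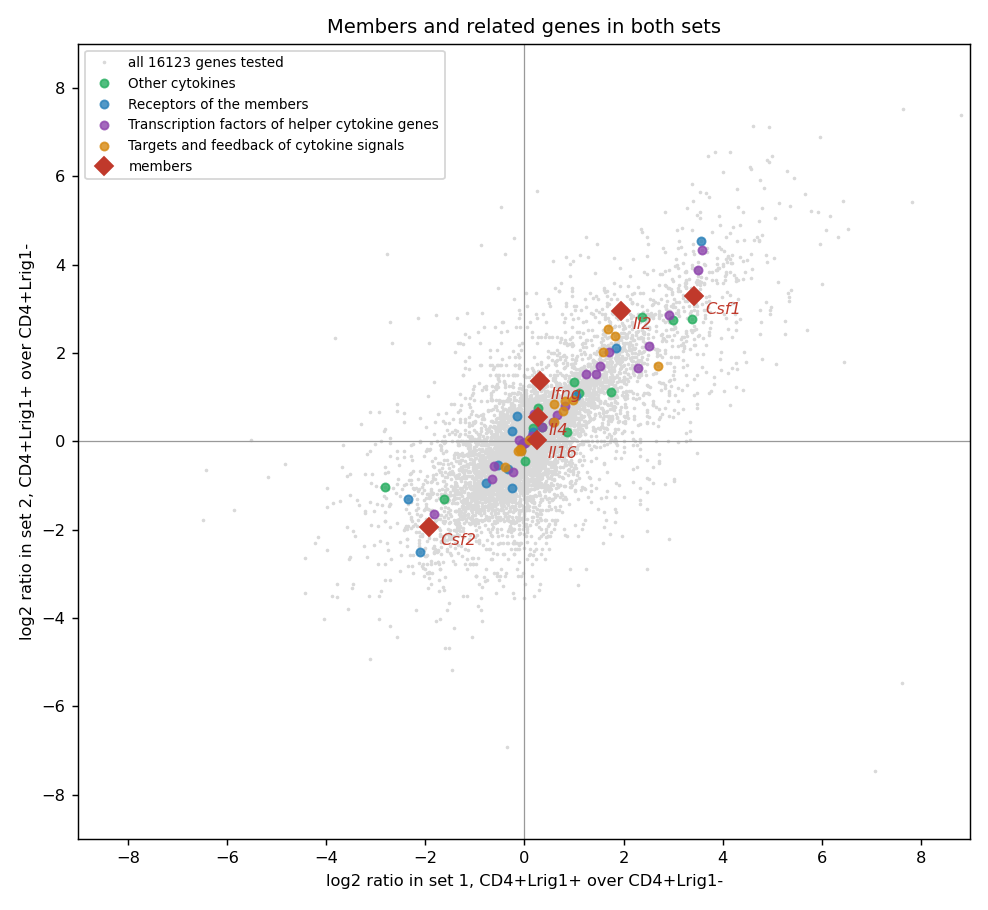
Log2 ratio (CD4+Lrig1+ to CD4+Lrig1-) in set 1 (x axis) and set 2 (y axis), with a prior count of 2, for the 16123 genes tested (grey), the 6 cytokine genes tested (red diamonds) and 4 lists of related genes (coloured). Csf1 and Il2 lie in the upper right, Csf2 in the lower left at -1.92 and -1.95, and Il16 near the origin.

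*Csf2* and the Th2 cytokine genes lie on one stretch of chromosome 11. The list of this locus and its flanks holds 13 genes over 747.9 kb, of which 12 had a read in some library and 10 were tested. The nearest genes to *Csf2* on the side of the Th2 cytokines, like *Csf2*, had their lower values in CD4+Lrig1+ T cells. *P4ha2*, a subunit of collagen prolyl hydroxylase, had 0.692 and 0.261 CPM in CD4+Lrig1+ against 3.70 and 1.09 in CD4+Lrig1- T cells, and with the table block it fell by 2.26 on the log2 scale (adjusted p = 0.00407 from the edgeR quasi-likelihood test). *Pdlim4*, an adaptor of the actin cytoskeleton, had 12.7 and 6.76 against 51.5 and 55.9 CPM and fell by 2.52 (adjusted p = 0.0164).

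*Slc22a5*, the carnitine transporter, went the other way, with 51.1 and 23.2 CPM in CD4+Lrig1+ against 24.2 and 14.8 in CD4+Lrig1- T cells, and it rose by 0.87 (adjusted p = 0.00236 with the table block). Those 3 were the only genes of the list to pass with the table block, 1 of 10 higher and 2 lower beside 14.5% and 12.8% of all genes, shares close to the background. In the edgeR quasi-likelihood test without the table block 0 passed. *Rad50*, a DNA repair gene between *Il13* and *Il5* whose 3′ part holds the known locus control region of the Th2 cytokines, stood at 49.3 and 26.1 against 48.9 and 24.9 CPM. *Irf1* had 254 and 207 against 265 and 239 CPM, *Kif3a* 7.90 and 5.73 against 8.79 and 6.24, *Sept8* 7.999 and 8.24 against 8.98 and 6.30, and *Slc22a4* 0.385 and 0.261 against 0.104 and 0.185. None of these 5 passed. The median log2 fold change over the 10 tested genes was -0.049, against -0.040 for all genes tested.

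**Figure D5:**
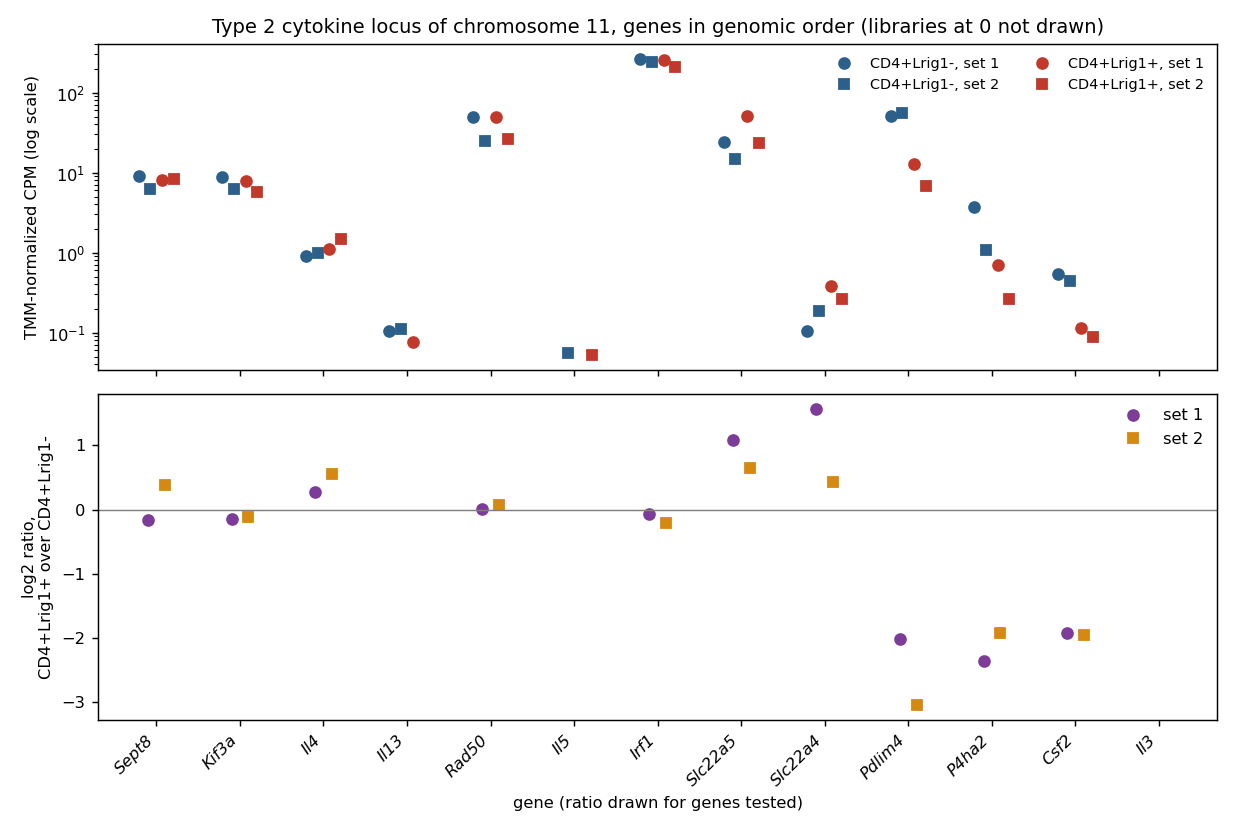
Genes of the type 2 cytokine locus of chromosome 11 in genomic order (x axis, not to scale), with TMM-normalized CPM per library above (logarithmic, libraries at 0 not drawn) and the log2 ratio within each set (CD4+Lrig1+ to CD4+Lrig1-) below. Pdlim4, P4ha2 and Csf2, which are adjacent, lie between -1.92 and -3.04 in both sets, while Rad50 lies at 0.013 and 0.066.

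Receptors of these cytokines were examined next. Of the 17 on the list 15 were tested, and 3 passed as higher and 5 as lower with the table block (14.5% and 12.8% of all genes), against 0 in the edgeR quasi-likelihood test without it. Their median log2 fold change was -0.14, against -0.040 for all genes tested. *Il2rb*, the signalling chain of the IL-2 receptor, had 1030 and 1060 CPM in CD4+Lrig1+ against 287 and 246 in CD4+Lrig1- T cells and rose by 1.98 on the log2 scale (adjusted p = 3.17e-05 from the edgeR quasi-likelihood test with the table block). *Csf1r*, the receptor of M-CSF, had 13.2 and 65.9 against 6.39 and 32.2 CPM and rose by 1.04 (adjusted p = 2.66e-04). *Csf1r* is itself among the 9 myeloid markers used here. With *Csf1r* included, these summed to 42.5 and 196 CPM in CD4+Lrig1+ against 42.1 and 227 CPM in CD4+Lrig1- T cells. The median log2 ratio of the 9 was -0.098 in set 1 and -0.16 in set 2, while that of *Csf1r* was 1.05 and 1.03. The part of such cells in *Csf1r* was not tested.

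*Csf2rb2*, close in sequence to the GM-CSF receptor chain *Csf2rb* but a chain for IL-3, had 1.63 and 1.10 CPM in CD4+Lrig1+ against 7.14 and 6.41 in CD4+Lrig1- T cells. It fell by 2.33 (adjusted p = 4.16e-04 from the edgeR quasi-likelihood test with the table block). *Csf2rb* itself, named here after its values were seen, had 2.12 and 4.13 against 10.9 and 10.3 CPM. In the same test *Csf2rb* fell by 1.82 (adjusted p = 0.00433). Reads of these similar genes could have been divided between them. *Ifngr2*, the signalling chain of the interferon-γ receptor, had 38.3 and 33.4 against 65.3 and 63.9 CPM and fell by 0.85 (adjusted p = 4.52e-04). The partner chains, also named here after their values were seen, did not pass with the table block. *Csf2ra* of the GM-CSF receptor had 11.7 and 3.88 against 13.8 and 3.31 CPM. *Ifngr1* of the interferon-γ receptor had 136 and 175 against 123 and 168 CPM.

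Among 24 other cytokines 13 were tested, and 7 passed as higher and 1 as lower with the table block, beside 14.5% and 12.8% of all genes. The median log2 fold change was 0.57, against -0.040 for all genes tested. *Tnfsf11* (RANK ligand) had 48.5 and 70.3 CPM in CD4+Lrig1+ against 9.34 and 9.92 in CD4+Lrig1- T cells and rose by 2.60 (adjusted p = 3.03e-05 from the edgeR quasi-likelihood test with the table block). *Il21*, the cytokine of follicular helper T cells, had 9.88 and 20.9 against 1.21 and 3.06 CPM and rose by 2.88. *Ebi3*, a subunit of IL-27 and IL-35, had 17.7 and 22.6 against 1.67 and 3.30 CPM and rose by 3.06. *Lta* (lymphotoxin-α) had 41.2 and 39.3 against 19.3 and 18.5 CPM and rose by 1.09.

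All 25 transcription factors of the helper cytokine list were tested, and with the table block 14 passed as higher and 4 as lower, beside the same 14.5% and 12.8% of all genes. Like the other lists, this one was chosen with earlier results of these data known. It includes the Treg genes *Foxp3* and *Ikzf2*, so its counts are descriptions. The median log2 fold change was 0.38, against -0.040 for all genes tested. *Ikzf2* (Helios) rose by 3.69 on the log2 scale, *Nfil3* by 2.90, *Eomes*, a T-box factor of *Ifng*, by 2.33 and *Maf*, an activator of *Il4* and *Il21*, by 1.85. Other factors of *Ifng* went both ways. *Tbx21* (T-bet) fell by 0.59 (adjusted p = 0.00411 from the edgeR quasi-likelihood test with the table block) and *Runx3* by 0.76 (adjusted p = 5.22e-04). In the same test *Hlx* fell by 1.84 (adjusted p = 0.0266) and *Stat4* rose by 0.33 (adjusted p = 0.0120). All of these were named here after their values were seen. Of the 14 targets and feedback genes of cytokine signals, all tested, 9 passed as higher and 1 as lower (14.5% and 12.8% of all genes), with a median log2 fold change of 0.73 against -0.040 for all genes. *Cish*, a feedback gene of STAT5, had 155 and 137 CPM in CD4+Lrig1+ against 51.6 and 33.5 in CD4+Lrig1- T cells and rose by 1.80 (adjusted p = 1.48e-04 from the edgeR quasi-likelihood test with the table block). *Ccr4* rose by 2.11, *Cxcr3* by 0.87 and *Bcl6*, a repressor found in follicular helper T cells, by 0.95. When edgeR's quasi-likelihood test had no set term, 0 genes of the cytokine, transcription factor and target lists passed.

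The tissue labels were checked against markers. The 8 T cell identity genes summed to 4366 and 6599 CPM in CD4+Lrig1+ against 4254 and 6696 in CD4+Lrig1- T cells. The 5 Treg genes summed to 2020 and 1717 against 207 and 140 CPM, the 3 memory or activation genes to 405 and 639 against 157 and 213, and the 3 naive genes to 1226 and 1702 against 1943 and 3184. The 8 B cell genes, all detected, summed to 87.4 and 352 against 67.1 and 681 CPM, and the 3 genes of type 2 innate or type 2 cell receptors to 76.6 and 69.8 against 51.3 and 40.6. The Treg, memory and naive sums moved with *Csf1*, *Il2* and *Csf2* between the groups, and their part in those differences was not tested.

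For *Csf1*, *Il2*, *Il4* and *Il16*, each with a mean of at least 1 CPM, the 3 genes of most similar pattern were found by Euclidean distance between log2 CPM values over the 4 libraries, each centred on its own mean. *Csf1* lay nearest to *D430019H16Rik* (distance 0.0916), *Dnah7b* (0.197) and *Nrp1* (0.225), a receptor on Treg cells with 256 and 304 CPM in CD4+Lrig1+ against 23.2 and 24.9 in CD4+Lrig1- T cells. *Dnah7b* was at 0 in both CD4+Lrig1- libraries, so its distance depends on the prior count. *Il2* lay nearest to *5033430I15Rik* (0.0791), *Pxmp2* (0.137) and *LOC115489986* (0.194). *Il4* lay nearest to *Pycrl*, *Fbxl15* and *Plekho2* (0.0682 to 0.0863), and *Il16* to *Rtca*, *Parn* and *Sacm1l* (0.0251 to 0.0282). With 4 libraries per pattern, such neighbours describe these data only.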

How the data were processed

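The labels list 6 samples, 3 per group. 2 tables, whose columns name the group, gave 1 library of each group each. A table with 6 more per-sample columns was left out, since their names do not state a group. Per the labels, the kit was a stranded mRNA kit; whether counting used strand is not given in the sources used here. According to the methods and the submitters' processing notes, reads were trimmed (Trimmomatic 0.38), mapped (HISAT2 2.1.0) and assembled (StringTie 2.1.3b) on GRCm38. The authors made the estimated counts per RefSeq transcript, deposited as whole numbers and not normalized. The deposited FPKM values were scaled by the authors for transcript length and mapped fragments. Starts and ends of the 9 genes equal those of RefSeq on GRCm38.

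Counts were summed per gene symbol. In R 4.3.3, genes passing filterByExpr of edgeR 4.0.16 were scaled by TMM and tested with the robust quasi-likelihood test, Benjamini-Hochberg adjusted over all genes. Log2 ratios within sets used a prior count of 2. Fold intervals are exact conditional binomial and those of single counts Poisson, all at 95%. Alternatives were the table block, DESeq2 1.42.0, edgeR's exact test, other filters, scalings and prior counts, limma 3.58.1 with FPKM pseudocounts of 1 and 0.1 on the log2 scale, FPKM shares of transcripts, and each library left out. The fits were tested on simulated counts. Motifs were searched on both strands of the 250 bases before RefSeq starts. The 9 genes and all lists were chosen with earlier results of these data known. Named from each list were the 4 genes with the smallest p in the table block, plus every locus gene with a read and the 3 nearest patterns. The nearest patterns of *Ifng* are not reported here.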

Additional observations from a re-analysis of the deposited data

How the results depend on the processing

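No paired analysis was possible because the columns of the tables carry no replicate numbers. The libraries could be matched by table alone, as the table block and the other fits with a set term do. Without a term for the set, edgeR's quasi-likelihood test called 0 of the 6 tested cytokine genes higher and 0 lower. The number called higher was 1 (*Csf1*) with the DESeq2 Wald test and with edgeR's exact test. It was 2 (*Csf1* and *Il2*) with the table block, with the DESeq2 Wald test and the set term, with no filter and the table block, with limma on log2(FPKM + 1) and the table block, and with total counts and the table block, the last chosen after seeing the data. The number called lower was 1 (*Csf2*, adjusted p = 0.0344) with limma on log2(FPKM + 1) and the table block, and 0 under every other alternative. Over all genes the calls higher and lower were 0 and 0 in the first test, 2342 and 2065 with the table block, 260 and 50 with the DESeq2 Wald test, 1848 and 1969 with its set term, 196 and 17 with the exact test, 1665 and 1210 without a filter, 1911 and 1016 with limma and 3013 and 1997 with total counts, the last 3 with the table block. Leaving out each library in turn gave 0 cytokine genes called, 0 to 58 genes higher and 0 to 1 lower, each with 1 group of a single library that is assumed to vary like the other. The log2 fold change of *Il16* then ran from -0.072 (without the CD4+Lrig1- library of set 1) through -0.049 (without the CD4+Lrig1+ library of set 2) to 0.43, while the other 5 genes kept their direction under every alternative that tested them. Requiring 10 reads in every library left *Csf2* untested. Of the log2 ratios within sets, 69 moved by less than counting error under other scalings, prior counts and FPKM, and 11 by more. The cause of these differences was not tested. *Il5*, *Il13* and *Il17a* are limited by depth.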
